A study of Rattus norvegicus with 9 samples.

Results

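GABA-A receptors are the chloride channels through which GABA, the main inhibitory transmitter of the cortex, acts within milliseconds on neurons. The 5 subunit genes described here, Gabra4, Gabra5, Gabrb1, Gabrb2 and Gabrd, were taken as all probe sets of the expression table whose only gene symbol in the array platform's annotation is one of them. They were 6 probe sets of 5 genes, out of 12783 probe sets with a single symbol that cover 10411 genes. Each was read on the arrays of 9 rats.

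The animals were male Lewis rats, an inbred strain, that received no treatment and form 1 group of separate individuals, with 1 Affymetrix rat expression array per rat. The labels call the tissue prefrontal cortex, and their protocol describes frontal cortex dissected without the olfactory bulb 12 days after the final test. The labels give every rat 1 number each for sugar feeding, the plus maze, locomotion and startle, without units, and the design text names 3 tests without the plus maze. The question a comparison can address is whether subunit mRNA goes with behaviour among inbred individuals. Startle ranged from 67.7 to 501, locomotion from 536 to 1102, plus maze from 0 to 18.7 and sugar feeding from 0.8 to 4.7 (n = 9).

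Each GABA-A receptor is a ring of subunits, commonly alpha and beta subunits together with a gamma or a delta subunit. The site for GABA lies between an alpha and a beta subunit, and beta subunits are needed for the assembled receptor to reach the cell surface. Receptors that contain delta, often with the alpha-4 subunit, and many that contain alpha-5 lie outside synapses, where they respond to low ambient GABA and carry tonic inhibition. In a tissue homogenate such as this, a lower level from fewer cells of a type and one from less RNA per cell cannot be told apart.

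Values are log2 expression as deposited, already normalised between arrays. The level of one probe set cannot be set against that of another, so only differences between rats are compared. All 6 probe sets passed the filter on low values, a mean log2 of at least 3.22 over the 9 arrays, which kept 9520 probe sets. One of them, Gabrb2 1369818_at, passed only through rats 8 and 9, since its mean in the other 7 rats was 2.94. Array medians lay between 4.11 and 4.28, and arrays correlated with each other at 0.988 to 0.998 over all probe sets that are not controls. Rats 8 and 9 formed a pair away from the remaining arrays, with scores of 35.6 and 30.2 against -12.1 to -1.62 on a first principal component that held 49.6% of the variance. The labels name no batch, and this division was known from earlier results of the same data. Of all probe sets tested, 26.9% placed rats 8 and 9 outside the range of the other 7, 9.33% above it and 17.6% below it. Among the markers of tissue, 3 of the 4 measured genes of the excitatory neuron list (Slc17a7, Camk2a and Nrgn) passed the filter and Tbr1 did not. Of the lists for nearby regions, 2 of 6 striatal genes passed (Ppp1r1b and Penk, but not Drd1, Drd2, Adora2a or Rgs9), 1 of 3 measured thalamic genes (Prkcd, but not Slc17a6 or Tcf7l2) and 1 of 2 measured olfactory bulb genes (Cdhr1, but not Th).

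In the rat genome the subunit genes lie in groups. Gabra4 and Gabrb1 are neighbouring protein-coding genes on chromosome 14 on opposite strands, Gabra5 lies next to Gabrg3 on chromosome 1, and Gabrb2 lies next to Gabra6 on chromosome 10. Gabrd, on chromosome 5, has no other subunit gene beside it. The promoters of Gabra4, Gabrb1 and Gabrb2 are shown from RefSeq (GRCr8), 5′ to 3′ on the gene's own strand. Each runs from 250 bases before to 50 bases after the start of the gene. These genes had the 3 subunit probe sets of largest SD over all rats. For Gabrb2 that was 1369818_at, which passed the filter only through rats 8 and 9. Capitals mark the runs of at least 10 bases that the Gabrb1 and Gabrb2 promoters share on the same strand. Gabra4 is at chr14:36944497-36944796 on the plus strand, Gabrb1 at chr14:36902844-36903143 on the minus strand and Gabrb2 at chr10:27439543-27439842 on the plus strand.
Gabra4: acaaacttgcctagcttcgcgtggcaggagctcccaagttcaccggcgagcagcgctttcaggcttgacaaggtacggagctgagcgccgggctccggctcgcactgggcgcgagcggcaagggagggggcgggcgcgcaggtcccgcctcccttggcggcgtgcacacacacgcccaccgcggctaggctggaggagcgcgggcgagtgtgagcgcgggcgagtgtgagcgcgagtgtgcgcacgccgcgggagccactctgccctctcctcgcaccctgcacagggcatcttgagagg
Gabrb1: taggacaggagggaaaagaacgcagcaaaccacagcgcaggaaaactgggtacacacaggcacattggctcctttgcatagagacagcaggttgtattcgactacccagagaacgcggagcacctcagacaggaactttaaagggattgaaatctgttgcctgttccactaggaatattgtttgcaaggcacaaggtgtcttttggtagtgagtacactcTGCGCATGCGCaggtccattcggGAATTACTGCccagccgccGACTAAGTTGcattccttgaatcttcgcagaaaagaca
Gabrb2: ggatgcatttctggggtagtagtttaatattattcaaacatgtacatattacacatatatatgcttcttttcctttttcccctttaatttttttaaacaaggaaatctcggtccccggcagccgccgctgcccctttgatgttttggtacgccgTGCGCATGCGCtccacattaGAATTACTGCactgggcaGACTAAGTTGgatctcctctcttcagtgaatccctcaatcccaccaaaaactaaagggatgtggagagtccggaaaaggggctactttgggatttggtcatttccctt

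The promoters of both beta genes carried the 3 shared runs in the same order and with similar spacing. Their place relative to the start of the gene differs. In Gabrb1 the last run lies after the start and the middle run spans it, while in Gabrb2 all 3 lie before it. TGCGCATGCGC began at base 221 in Gabrb1 and base 155 in Gabrb2 and, on either strand, is held by 200 of 33469 rat promoters of this length (0.598%). GAATTACTGC began at bases 244 and 175 and is in 13 promoters (0.0388%), and GACTAAGTTG began at bases 263 and 193 and is in 5 (0.0149%). No other pair among the 5 promoters shared more than 2 runs of this length on the same strand. The promoters of the beta genes were poorer in G and C, at 49.3% for Gabrb1 and 44.0% for Gabrb2, than those of Gabra4 (70.7%), Gabra5 (76.3%) and Gabrd (73.7%), beside a median of 51.7% over all promoters. The letters GGGCGG of the GC box, read on both strands, occurred 1 time in Gabra4, 1 time in Gabra5 and 4 times in Gabrd, and not in the windows of Gabrb1 and Gabrb2. They are in 33.1% of all promoters, and TATAAA, in 14.2% of all, is in none of the 5 windows. These are matches of letters, not measured binding.

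The alpha subunits varied in different rats. Gabra4 (1369905_at), which encodes the alpha-4 subunit, read 5.84 and 5.93 in rats 8 and 9, and 5.44, 5.37, 4.82, 5.12, 5.04, 5.19 and 5.46 in rats 1 to 7. Both arrays that stood apart were above the other 7, and rat 3 was the lowest. The mean was 5.88 in rats 8 and 9 and 5.21 in rats 1 to 7, a difference of 0.68 log2 units. The whole range of Gabra4 spanned 2.15-fold, and its SD of 0.36 (n = 9) exceeded that of 87.2% of the probe sets tested.

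Gabra5 (1371057_at), which encodes the alpha-5 subunit of extrasynaptic receptors, read 8.64 and 8.74 in rats 8 and 9, and 8.66, 9.00, 8.74, 8.76, 8.68, 8.81 and 9.12 in rats 1 to 7. Rat 8 was the lowest and rat 9 lay in the middle of the rest, so the groups overlapped, and rats 7 and 2 were the highest. Its SD was 0.16 (n = 9) over a 1.39-fold range, beside a median SD of 0.19 over all probe sets tested.

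Leaving out Gabrb2 1369818_at, which passed the filter only through rats 8 and 9, Gabrb1 had the largest SD of the subunit probe sets. Gabrb1 (1369904_at), which encodes the beta-1 subunit, read 8.24 and 7.83 in rats 8 and 9, and 8.91, 9.00, 9.19, 9.23, 8.92, 8.98 and 7.73 in rats 1 to 7. Rat 7 went with rats 8 and 9 here: these 3 rats lay below the other 6 with a clear gap. On the first principal component of the arrays, too, rat 7 was the nearest to rats 8 and 9. Its score was -1.62, against -12.1 to -6.41 in rats 1 to 6. The SD of Gabrb1 was 0.58 (n = 9), above that of 96.7% of the probe sets tested, and its range was 2.83-fold. Of all probe sets tested, 7.52% had rats 7, 8 and 9 below the other 6.

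Rats 7, 8 and 9 also had the highest summed level of the excitatory neuron markers. The log2 sum over the 4 measured genes of that list was 13.31 to 13.70 in rats 7, 8 and 9, against 12.89 to 13.08 in rats 1 to 6. The 3 genes that passed the filter deviated from their means by 0.66, 0.33 and 0.20 log2 units in rats 7, 8 and 9, on average, against -0.38 to -0.08 in rats 1 to 6. Only 1 of these 3 genes had rats 7, 8 and 9 all above rats 1 to 6. The astrocyte sum was 13.43 to 13.64 in rats 7, 8 and 9, against 13.56 to 13.92 in rats 1 to 6, and the oligodendrocyte sum was 12.69 to 13.20 in rats 7, 8 and 9, against 12.50 to 13.13 in rats 1 to 6. The part of these markers in the level of Gabrb1 was not tested.

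Gabrb2, which encodes the beta-2 subunit, widely expressed in the adult rodent brain, has 2 probe sets, which differed from each other in rats 8 and 9. Probe set 1369818_at read 4.82 and 4.78 in rats 8 and 9, and 3.02, 2.96, 3.10, 2.92, 2.82, 2.74 and 3.01 in rats 1 to 7. The 2 groups of arrays were separate, with means of 4.80 in rats 8 and 9 and 2.94 in rats 1 to 7, a difference of 1.86 log2 units. The level in rats 1 to 7 is below the filter, so no fold is read from it, and the difference is not ranked among those of other probe sets. Within rats 1 to 7 its SD was only 0.12, against 0.83 over all 9.

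Probe set 1377773_at of the same gene read 10.38 and 10.73 in rats 8 and 9, and 10.86, 10.85, 10.69, 10.91, 11.00, 10.87 and 10.91 in rats 1 to 7. Rat 8 was the lowest of all and rat 9 lay just above rat 3, so the ranges overlapped. The mean was 10.56 in rats 8 and 9 and 10.87 in rats 1 to 7, a difference of -0.31 log2 units, opposite in sign to that of 1369818_at. Which part of the transcript each probe set reads was not analysed here, so a difference between them cannot be assigned to an isoform.

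Gabrd (1369048_at), which encodes the delta subunit, had the lowest SD of the 6. It read 7.94 and 7.88 in rats 8 and 9, and 8.16, 7.98, 8.36, 7.90, 8.15, 7.98 and 7.98 in rats 1 to 7. Rat 3 was the highest and rat 9 the lowest, and rats 8 and 9 overlapped the rest at the low end. Its SD was 0.155 (n = 9) and its range 1.39-fold.

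**Figure D1:**
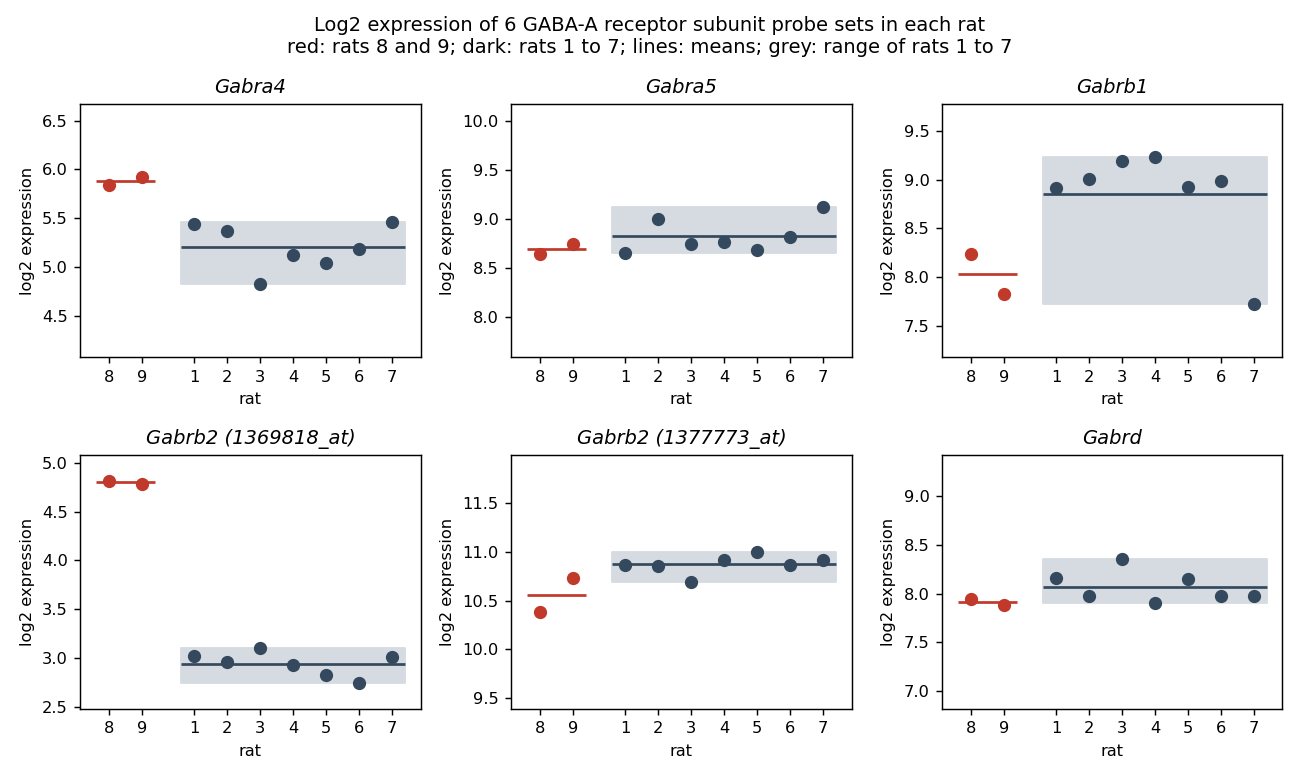
Log2 expression of the 6 subunit probe sets in each rat, 1 panel per probe set, each on an axis of the same height. Red points are rats 8 and 9, dark points rats 1 to 7, lines the 2 means and grey the range of rats 1 to 7; the gap is widest for Gabrb2 1369818_at, and in Gabrb1 rat 7 lies with rats 8 and 9.

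Leaving out Gabrb2 1369818_at, which passed the filter only through these arrays, 1 of 5 probe sets had rats 8 and 9 both outside the range of rats 1 to 7. That was Gabra4, above it. A share of 1 in 5 is near the 26.9% of all probe sets, so it says nothing particular about the receptor genes. For the other 4 probe sets the difference of rats 8 and 9 from rats 1 to 7 was -0.13 for Gabra5, -0.16 for Gabrd, -0.31 for Gabrb2 1377773_at and -0.82 for Gabrb1.

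**Figure D2:**
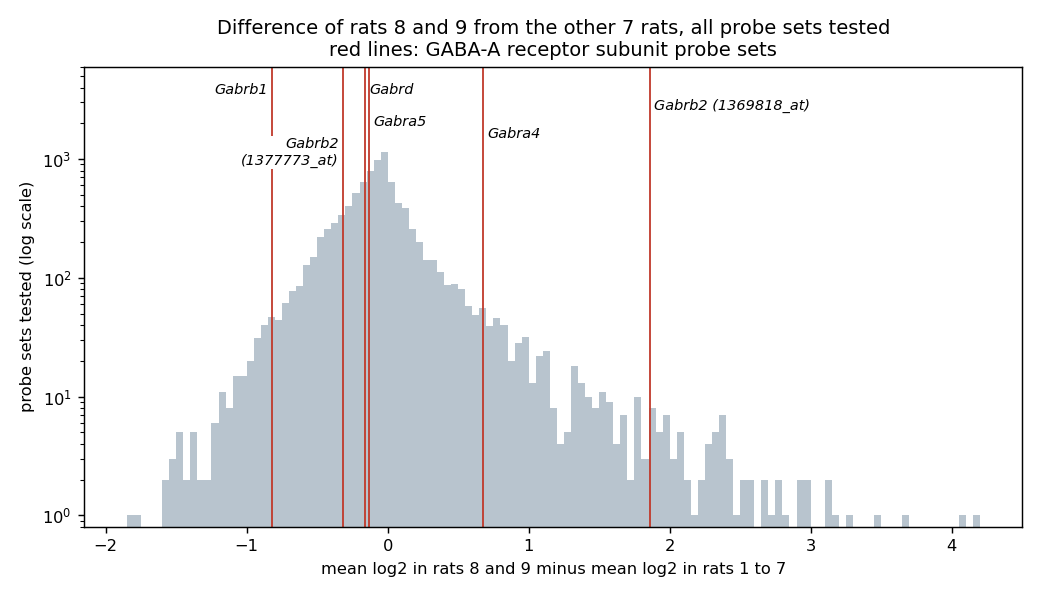
Histogram of the mean log2 value in rats 8 and 9 minus the mean in rats 1 to 7 for the 9520 probe sets tested, with the count on a log scale. Red lines mark the 6 subunit probe sets: Gabrb2 1369818_at at 1.86 and Gabra4 at 0.68 lie on the right, Gabrb1 at -0.82 on the left and the other 3 near the centre. The place of Gabrb2 1369818_at is not ranked, since it passed the filter only through rats 8 and 9.

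No subunit probe set had a slope on a behaviour that passed the test. The limma fit of expression per SD of each behaviour over the 9 rats, with Benjamini-Hochberg adjustment over 9520 probe sets, called 0 of the 6 for any of the 4 behaviours, and 0.0% of all probe sets for each. At an unadjusted limma p under 0.05 it was again 0 of 6 for each behaviour, beside 1.4% of all probe sets with sugar feeding, 2.99% with the plus maze, 1.96% with locomotion and 13.2% with startle. The exact permutation test of Pearson r over the pairings of the 9 rats also gave 0 of 6 for each, beside 1.31%, 3.28%, 2.08% and 13.0% of all probe sets in the same order. The p-values measure the spread between these rats, which with 1 array each includes technical differences between arrays.

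The smallest exact permutation p of r over 9 rats among the subunits was that of Gabrd with startle. Gabra5 and Gabrb2 1377773_at had a smaller p with other behaviours than with startle. For Gabrd the slope per SD was 0.10 ± 0.046 log2 units (SE, n = 9, limma adjusted p = 0.384). Its r was 0.649 and its rho 0.559 (exact permutation p = 0.0585 for r and 0.128 for rho, adjusted p = 0.393 for r). In rats 1 to 7 its r was 0.623 (exact permutation p = 0.133), but when rats 1 and 3, which lay farthest from the startle median, were left out it was -0.114. Those 2 rats had the highest startle values and the highest Gabrd values, so leaving them out narrows the range of both. The r without them therefore cannot tell whether the relation is more than these 2 rats.

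For Gabra4 the slope per SD was -0.19 ± 0.10 log2 units (SE, n = 9, limma adjusted p = 0.433). Since rats 8 and 9 lay apart from the other 7 in Gabra4, r is given within rats 1 to 7, where it was -0.286 and rho -0.321 (exact permutation p = 0.524 for r and 0.498 for rho). The highest Gabra4 values, those of rats 8 and 9, went with startle values of 67.7 and 230, both below the median of 244.7. Rats 5 and 7, with startle of 175.4 and 153.7, were also below it and read 5.04 and 5.46. With 2 arrays that stand apart, this is not read as a relation.

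Gabrb1 had the largest positive slope on startle, 0.34 ± 0.16 log2 units per SD (SE, n = 9, limma adjusted p = 0.383), but that slope sets the 3 low rats against the other 6. Startle was 67.7 and 230 in rats 8 and 9 and 153.7 in rat 7, and it was 175.4 to 501 in rats 1 to 6. Over all 9 rats r was 0.594 and rho 0.600 (exact permutation p = 0.0927 for r and 0.0968 for rho, adjusted p = 0.431 for r). In rats 1 to 6 alone the slope was 0.02 ± 0.069 (SE, n = 6, limma adjusted p = 0.904). Pearson r there was 0.124 and rho -0.0286 (exact permutation p = 0.808 for r and 1.00 for rho). Rats 7, 8 and 9 were left out for their low Gabrb1, which removes most of its spread. The fit to rats 1 to 6 therefore cannot tell whether the relation is more than this split.

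Gabrb2 1377773_at gave opposite directions with and without rats 8 and 9. Over 9 rats its r with startle was 0.215 and its rho -0.117 (exact permutation p = 0.593 for r and 0.776 for rho). Among rats 1 to 7 r was -0.822 and rho -0.786 (exact permutation p = 0.00714 for r and 0.048 for rho, adjusted p = 0.234 for r). That was the only one of the 24 relations with an exact permutation p of r under 0.05 in rats 1 to 7, where 16.0% of all probe sets had one for startle, 3.28% for locomotion, 3.9% in the plus maze and 2.01% for sugar feeding. Without rats 1 and 3 of the 9, r was 0.539. No r is given for Gabrb2 1369818_at, whose values in rats 1 to 7 are below the filter. Gabra5 had r = -0.137 and rho = 0.117 over 9 rats (exact permutation p = 0.736 for r and 0.776 for rho), and r = -0.485 in rats 1 to 7.

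For locomotion, Gabra4 had a positive slope that did not pass the test. The slope was 0.20 ± 0.10 log2 units (SE, n = 9, limma adjusted p = 1.00). Within rats 1 to 7 its r was 0.567 and its rho 0.393 (exact permutation p = 0.184 for r and 0.396 for rho, adjusted p = 1.00 for r). Gabra5 had a negative relation, with r = -0.443 and rho = -0.583 (exact permutation p = 0.230 for r and 0.108 for rho), and with r = -0.347 in rats 1 to 7 and -0.547 without rats 1 and 3, which had the highest and the lowest locomotion. Gabrd had r = -0.243 and Gabrb2 1377773_at r = -0.240 over 9 rats. The r of Gabrb2 1377773_at turned to 0.261 in rats 1 to 7 and reached -0.789 without rats 1 and 3 (exact permutation p = 0.0343, unadjusted). Rat 8, the lowest in this probe set and with a locomotion of 946, remains among those rats. With rats 1 and 3 left out, 13.2% of all probe sets had an unadjusted limma p under 0.05 for locomotion. The lowest adjusted limma p of any probe set there was 0.364. Gabrb1 in rats 1 to 6 had r = -0.424 and rho = -0.257 (exact permutation p = 0.414 for r and 0.658 for rho).

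With plus maze and sugar feeding the r of Gabra5, Gabrb2 1377773_at and Gabrd over 9 rats lay between -0.382 and 0.246. The r with plus maze was 0.246 for Gabra5, 0.142 for Gabrb2 1377773_at and -0.205 for Gabrd, and that of Gabra4 in rats 1 to 7 was 0.418. Both rats at the top of the plus maze values, 2 and 6, lay farthest from its median, and without them the r of Gabra5 was -0.340. With sugar feeding, the r over 9 rats was -0.284 for Gabrb2 1377773_at, -0.308 for Gabrd and -0.382 for Gabra5, and that of Gabra4 in rats 1 to 7 was -0.0859. Leaving out rats 4 and 8, which had the highest sugar feeding values, Gabra5 had r = -0.411 and Gabrd 0.211. Gabrb1 in rats 1 to 6 had r = -0.470 with plus maze (exact permutation p = 0.325) and 0.627 with sugar feeding (exact permutation p = 0.171). Over the 24 relations of a probe set with a behaviour, the lowest adjusted exact permutation p was 0.393 over 9 rats and 0.234 in rats 1 to 7.

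**Figure D3:**
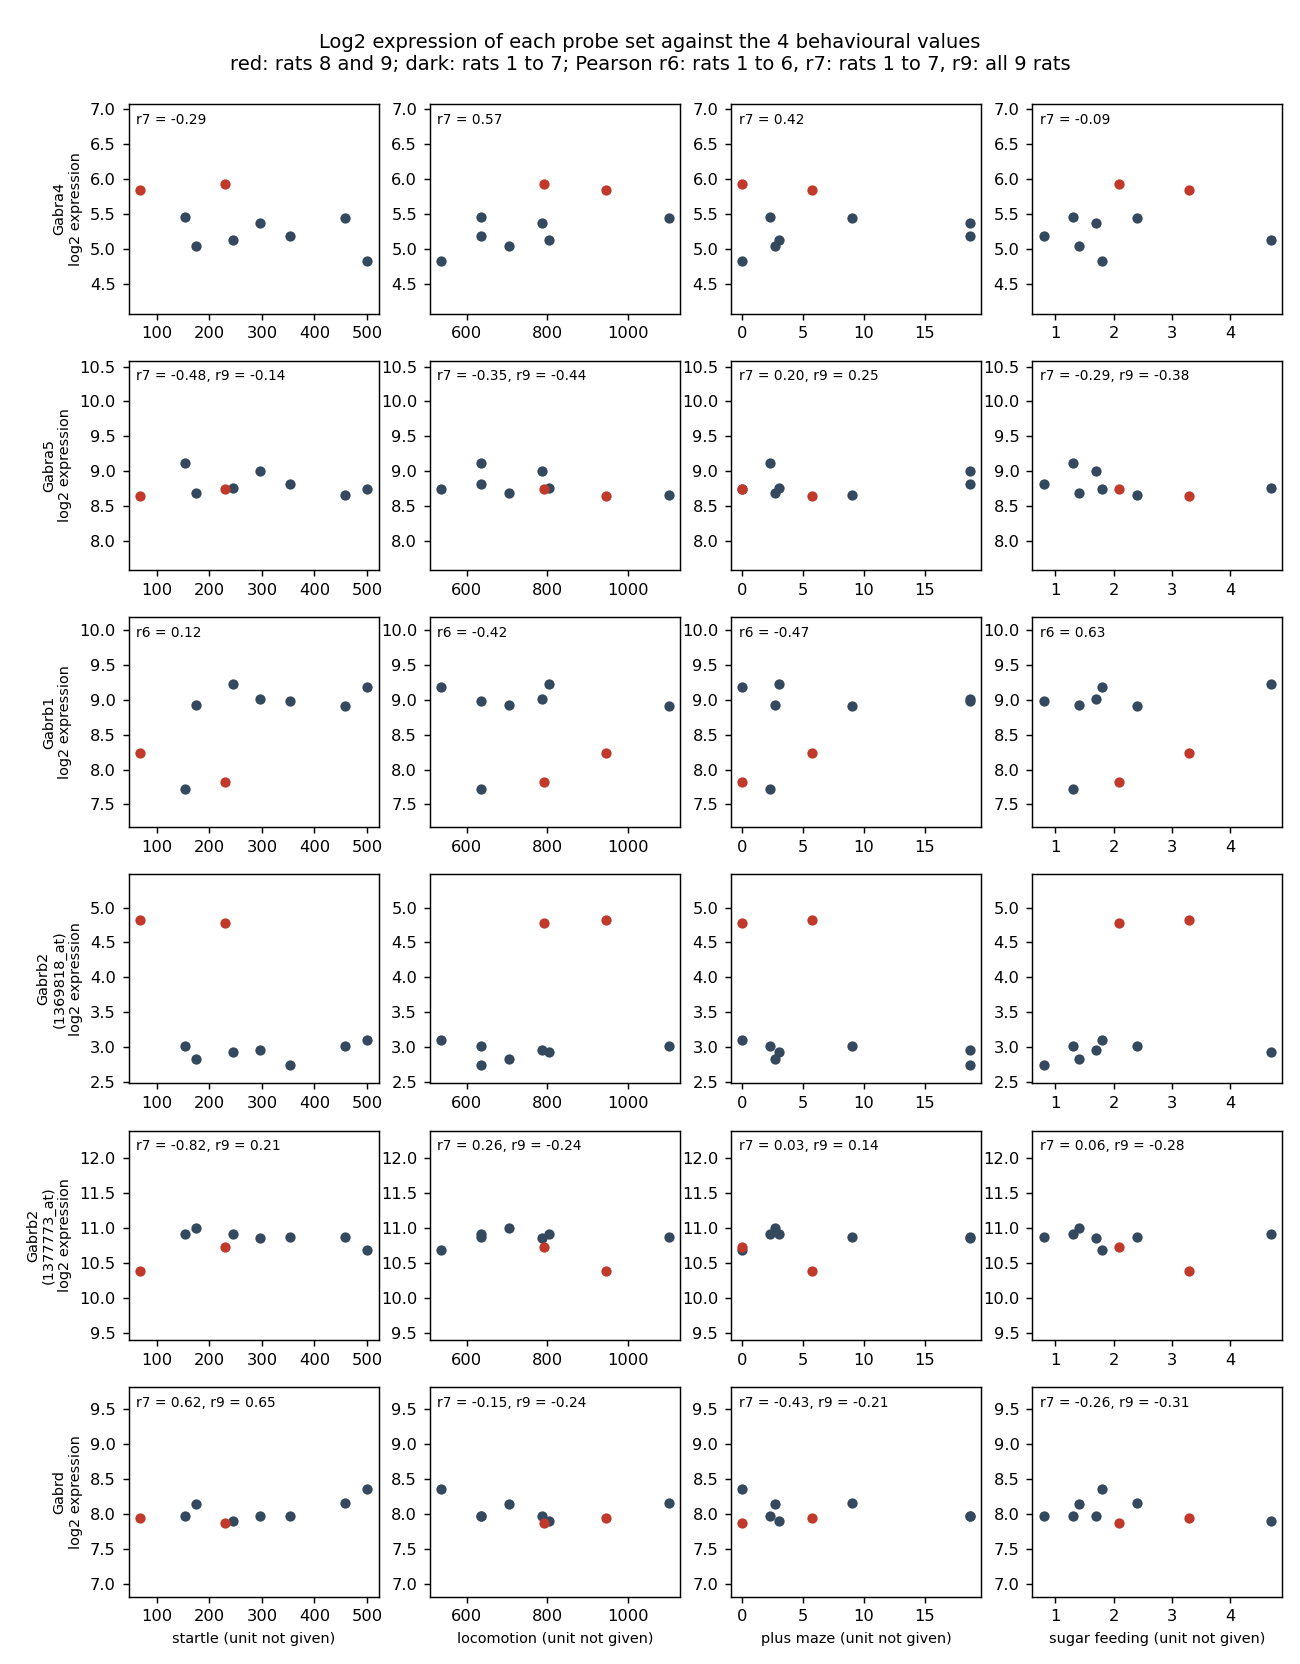
Log2 expression of each subunit probe set (rows, vertical axes of equal height) against the 4 behavioural values (columns, units not given), 1 point per rat. Red points are rats 8 and 9 and dark points rats 1 to 7; r9 is over all 9 rats, r7 over rats 1 to 7 and r6 over rats 1 to 6, Gabra4 and Gabrb1 have no r9 and Gabrb2 1369818_at has no r, and the sign of r for Gabrb2 1377773_at with startle differs between r9 (0.21) and r7 (-0.82).

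Correlations between the subunits had both signs. Among Gabra4, Gabra5, Gabrb2 1377773_at and Gabrd, the r of the 6 pairs lay between -0.570 and 0.519 in rats 1 to 7. Gabra4 and Gabrd, whose proteins occur together in extrasynaptic receptors, had r = -0.569 and rho = -0.296 there (exact permutation p = 0.182 for r and 0.529 for rho). The adjusted exact permutation p was 0.624 over all probe sets set against Gabra4 and 0.623 over all set against Gabrd. Gabra4 and Gabra5 had r = 0.519 in rats 1 to 7 (exact permutation p = 0.236). In Gabra5, Gabrb2 1377773_at and Gabrd the values of rats 8 and 9 overlapped the rest, though rat 8 or 9 was the lowest in each. Gabra5 with Gabrb2 1377773_at had r = 0.365 over 9 rats and 0.0457 in rats 1 to 7. Gabrd with Gabrb2 1377773_at had 0.0655 over 9 rats and -0.570 in rats 1 to 7, so the sign depended on rats 8 and 9. For Gabra5 with Gabrd r was -0.260 over 9 rats and -0.500 in rats 1 to 7. Gabrb1 and its chromosomal neighbour Gabra4 had r = -0.574 and rho = -0.486 in rats 1 to 6 (exact permutation p = 0.233 for r and 0.356 for rho).

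**Figure D4:**
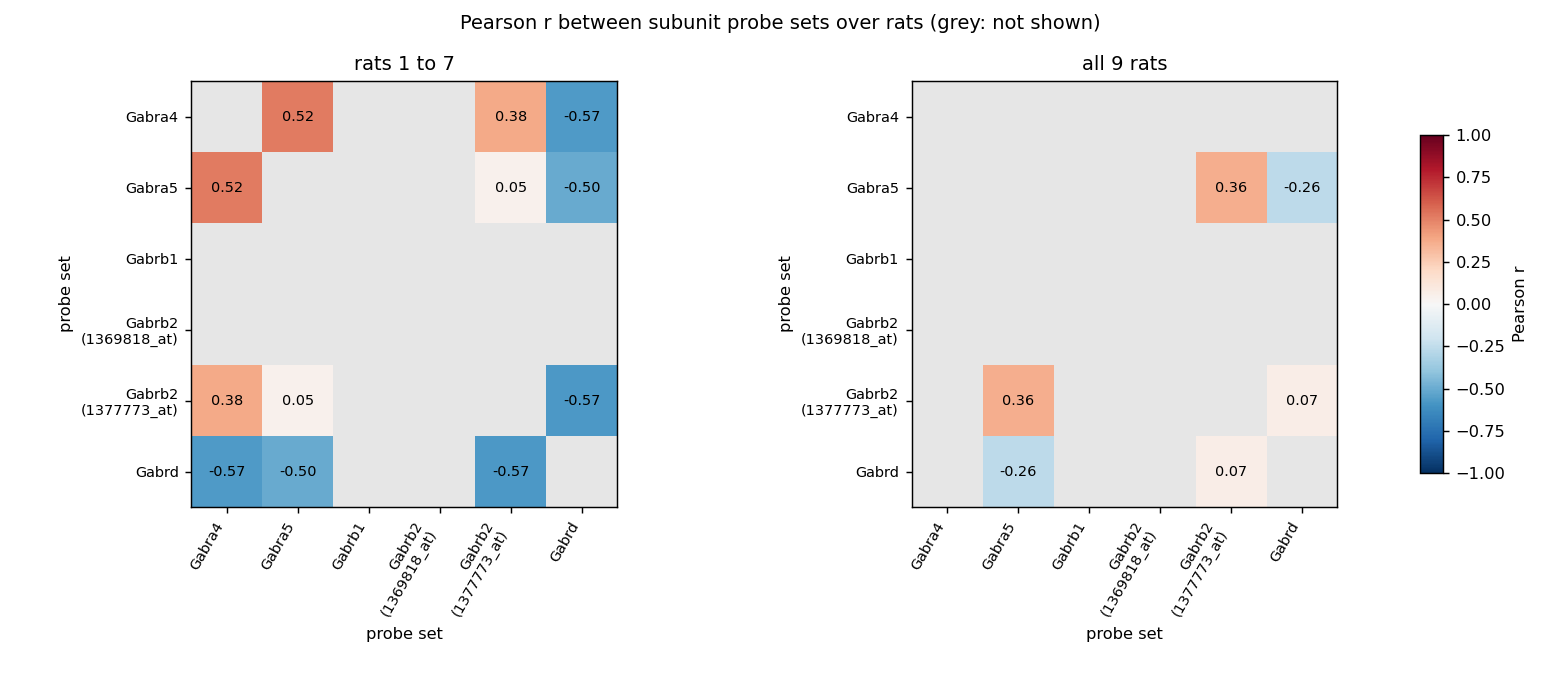
Pearson r between the subunit probe sets over rats 1 to 7 (left) and over all 9 rats (right), blue for negative and red for positive values. Grey pairs are not shown: Gabrb1 has rats 7, 8 and 9 apart from the rest, Gabrb2 1369818_at is below the filter in rats 1 to 7, and Gabra4 has rats 8 and 9 apart and is left out on the right; the r of Gabra4 with Gabrd is -0.57 on the left.

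The 2 Gabrb2 probe sets had r = -0.791 over 9 rats, a value that sets 2 arrays against 7. Within rats 1 to 7 r was -0.619, with 1369818_at between 2.74 and 3.10 and so below the filter in each of these rats, and neither value is read as a relation.

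Each member was also matched with the genes whose pattern over the rats was most like its own. Likeness was the lower of Pearson r over 9 rats and r over rats 1 to 7, among 6765 genes. For Gabra4 the rule gave Nsf (likeness 0.904), an ATPase of membrane fusion, Tmem30a (0.885), a subunit of lipid flippases, and Irs2 (0.861), an adaptor of insulin signalling. Nsf has 3 probe sets, and its likeness is that of a single one. That probe set followed Gabra4 in rank almost throughout, with rho = 0.964 in rats 1 to 7.

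Gabra5 was most like Dcn (0.937), a matrix proteoglycan, Rap1a (0.918), a small GTPase, and Hnrnpa0 (0.912), an RNA-binding protein. These likenesses came from rats 2 and 7, the highest for Gabra5: without them r was 0.382, 0.421 and 0.366. Gabrb2 1377773_at was most like Emc2 (0.967), a subunit of the membrane protein insertion complex of the endoplasmic reticulum, Pgap4 (0.964), an enzyme of GPI-anchor synthesis, and Cfap418 (0.959). Without its farthest rats 3 and 8 these had r between 0.931 and 0.974. Gabrd was most like Poglut2 (0.908), Kif26b (0.907), a kinesin family member, and Rab22a (0.906), a small GTPase of endosomes, with r between 0.748 and 0.870 without rats 1 and 3. For Gabrb1 the rule gave Reck, Hadhb and Mrpl37, but in rats 1 to 6 their r was 0.859, 0.343 and 0.196. These genes were chosen for their likeness, so its values are a description.

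Among the other subunit genes the array gave little signal. Of 14 genes listed, 10 have a probe set of a single symbol and only Gabrg1, which encodes the gamma-1 subunit, passed the filter. It read 3.53 and 4.00 in rats 8 and 9, and 3.20 to 4.05 in rats 1 to 7, and its slope passed the test for none of the 4 behaviours. Gabra3, Gabra6, Gabrg3, Gabre, Gabrp, Gabrq, Gabrr1, Gabrr2 and Gabrr3 lay between 1.65 and 2.77 in every rat, below the filter, with SDs of at most 0.098.

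Genes whose products anchor, traffic or supply these receptors were read from a second list of 25, of which 21 were measured and 18 passed the filter. In limma 0 of 18 passed an adjusted p of 0.05 for any behaviour. At an unadjusted p under 0.05 the count was 2 of 18 for startle, both negative, beside 13.2% of all probe sets, and 1 of 18 for plus maze, also negative, beside 2.99%, with none for locomotion or sugar feeding. The median slope of the list on startle was 0.0020, beside 0.02 over all probe sets. Clptm1, which limits the forward traffic of GABA-A receptors, had a slope of -0.13 ± 0.037 per SD of startle (SE, n = 9, limma adjusted p = 0.359). Gad2, a GABA-synthesising enzyme, had -0.65 ± 0.23 (SE, n = 9, limma adjusted p = 0.359), and read 6.20 and 4.84 in rats 8 and 9, and 3.15 to 4.64 in rats 1 to 7. Shisa7, an auxiliary protein of GABA-A receptors, had a slope of -0.17 ± 0.069 per SD of plus maze (SE, n = 9, limma adjusted p = 0.999).

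Of the 18 partners, 2 had rats 8 and 9 above the other 7 and 3 had them below, shares near the 9.33% and 17.6% of all probe sets. The values of the 5 are given as a description. Gphn, the gephyrin scaffold of inhibitory synapses, averaged 6.86 in rats 8 and 9 and 7.82 in rats 1 to 7. Gad1, the other GABA-synthesising enzyme, averaged 10.52 in rats 8 and 9 and 10.92 in rats 1 to 7, while Gad2 averaged 5.52 in rats 8 and 9 and 3.74 in rats 1 to 7. Slc12a2, the chloride importer NKCC1, averaged 7.22 in rats 8 and 9 and 7.50 in rats 1 to 7. Nsf, in the probe set matched with Gabra4, averaged 11.60 in rats 8 and 9 and 11.43 in rats 1 to 7. The slope on startle of that probe set was -0.064 log2 units per SD, against 0.073 and -0.0079 for the other Nsf probe sets (n = 9). Its values are therefore not read for the gene as a whole. Gad1 has 2 probe sets and was also read from a single one. The interneuron marker list, which includes Gad1 and Gad2, had a log2 sum of 11.66 in both rats 8 and 9, against 11.77 to 12.25 in rats 1 to 7, and 4 of its 6 genes were below and 1 above the other rats. Its part in the subunit values was not tested.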

How the data were processed

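Each of the 9 rats gave 1 array of prefrontal cortex RNA. The authors deposited log2 values, 1 per probe set and array. Per the submitters' processing notes, the tools were GCRMA and R 2.6.2. GCRMA subtracts a background predicted from probe sequence and normalises between arrays, and its settings were not given in the sources used here. Scanner files were not used. Precision is limited by the number of arrays.

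Of 15923 probe sets, 57 controls were removed and the 40% with the lowest means were removed from the remaining 15866, which kept 9520. The platform annotation gave 12783 probe sets 1 symbol, 312 several and 2771 none, and those with several were not named. All 5 members matched the RefSeq promoter table (GRCr8). The table held 0 other sample columns.

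Slopes were fitted with limma 3.58.1 in R 4.3.3 (lmFit and eBayes, two-sided, Benjamini-Hochberg over 9520 probe sets). Correlations have two-sided p-values from the complete set of 362880 pairings of 9 rats, 5040 of 7 or 720 of 6, computed with Python 3.11.15, numpy 2.4.6, pandas 2.3.3 and scipy 1.17.1, and are called exact permutation tests. Figures used matplotlib 3.10.9. The fits were tested on simulated data.

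Alternatives were other filters, renewed quantile normalization, an intensity trend with robust moderation, ranks, array weights, a term for or removal of rats 8 and 9, removal of the 2 rats farthest from the median, leaving out each rat, and a single probe set for every gene. The fit of Gabrb1 to rats 1 to 6 was chosen after seeing the data. Named genes are all member probe sets, the 3 most similar genes of each lead probe set, which is the one with the highest mean, and up to 4 genes per list by smallest limma p; other genes named were chosen after their values were seen. The members and lists were chosen with earlier results of these data known.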

Additional observations from a re-analysis of the deposited data

How the results depend on the processing

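The 20 slopes of the 5 genes on the 4 behaviours, read from the probe set with the highest mean, gave 380 values under the alternatives. Of these, 341 kept the direction and 39 turned it, and 0 passed an adjusted limma p of 0.05 (lowest 0.310). The slopes of Gabra4 on startle and locomotion, Gabra5 on locomotion and sugar feeding, and Gabrb1 on startle kept their direction throughout, but not their size. Gabra4 on startle went from -0.192 to -0.056 with a term for rats 8 and 9. It was -0.072 without these rats and -0.044 with array weights. Gabrb1 on startle went from 0.345 to 0.019 in rats 1 to 6. No paired analysis was possible because the rats form 1 group.

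The directions turned as follows, in log2 units per SD. With a term for rats 8 and 9 the slopes were -0.041 for Gabrb2 on startle, 0.095 for Gabrb1 and 0.00074 for Gabrb2 on locomotion, 0.083 for Gabra4 and -0.016 for Gabrb2 on plus maze, and -0.023 for Gabra4 on sugar feeding. Without rats 8 and 9 they were -0.084 for Gabrb2 on startle, 0.074 for Gabrb1 and 0.023 for Gabrb2 on locomotion, 0.091 for Gabra4 on plus maze, and -0.019 for Gabra4 and 0.0058 for Gabrb2 on sugar feeding. With array weights they were -0.020 for Gabrb2 on startle and 0.034 for Gabrb1 on locomotion, and with ranks 0.0043 for Gabra4 on plus maze. Without the 2 farthest rats they were 0.062 for Gabra5 and -0.015 for Gabrd on startle, 0.203 for Gabra4, -0.128 for Gabra5 and -0.038 for Gabrb2 on plus maze, and -0.073 for Gabrb1 and 0.077 for Gabrd on sugar feeding. In rats 1 to 6 Gabrb1 had -0.057 on plus maze. The cause was not tested.

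Leaving out each rat gave slopes on startle of -0.076 to 0.019 for Gabra5 and -0.067 to 0.10 for Gabrb2. On locomotion they were -0.197 to 0.093 for Gabrb1, -0.124 to 0.018 for Gabrb2 and -0.145 to 0.032 for Gabrd. On plus maze they were -0.091 to 0.068 for Gabra4, -0.011 to 0.070 for Gabra5 and -0.058 to 0.010 for Gabrd. On sugar feeding they were -0.012 to 0.342 for Gabra4, -0.204 to 0.177 for Gabrb1 and -0.237 to 0.0045 for Gabrb2.

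Without a filter, or with 1 probe set per gene, 1 probe set of the whole table passed an adjusted p of 0.05 for startle, against 0, and it was no subunit. The number of subunit probe sets at an unadjusted p under 0.05 for startle was 1 without a filter (Gabrd), 1 with the lowest 70% left out (Gabrb1), 1 with ranks (Gabrb1) and 1 without rats 8 and 9 (Gabrb2 1377773_at). The share of all probe sets at that p was 15.5%, 12.5%, 13.2% and 14.6% in these 4 settings. Leaving out each rat gave 0 to 3, the 3 without rat 5 being Gabra4, Gabrb1 and Gabrd, and 1 each without rat 1 (Gabra4) and rat 4 (Gabrb1), beside 13.9%, 10.8% and 12.0% of all probe sets. For locomotion it was 2 without the 2 farthest rats (both Gabrb2 probe sets) and 0 to 2 leaving out each rat, 2 without rat 1 (Gabra4 and Gabrb2 1369818_at), beside 13.2% and 9.84%. For sugar feeding leaving out each rat gave 0 to 2, 2 without rat 4 (both Gabrb2 probe sets), beside 14.0%. Each count of 2, for locomotion and for sugar feeding, includes Gabrb2 1369818_at, which is below the filter in rats 1 to 7. Its part in these counts is not read as a relation. The correlation of the Gabrb2 probe sets was -0.619 without rats 8 and 9, and -0.925 to -0.577 leaving out each rat, the last without rat 8. For the same reason these values are not read as a relation. With the lowest 70% left out Gabra4 and Gabrb2 1369818_at had no value, and 1 probe set per gene dropped Gabrb2 1369818_at.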
